A study of Mus musculus with 10 samples.

Results

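Interleukin 1 (IL-1) and interleukin 6 (IL-6) family signalling was followed through 10 genes in whole back skin stretched by a tissue expander. The genes were taken by symbol, with the probe set of highest mean for each. They were the IL-1 family ligands Il1a, Il1b and Il33, the receptor antagonist Il1rn, the IL-6 family ligands Il6, Il11 and Lif, the receptor chains Osmr and Il6st, and the feedback inhibitor Socs3. All 10 were on the array, each with 1 probe set, out of 19505 genes named there. Of the 10, 9 passed the filter on low levels, as did 13653 genes in all, and Il11 did not.

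All mice were C57BL/6J and 9 weeks old when the experiment began. In both arms of the study a silicone expander lay under the back skin. PBS, a buffered salt solution, was injected to enlarge it in the 4 expanded samples. The 4 non-expanded samples carried it unfilled, so every sample of both arms carried an implant. The days were 0, 7, 14 and 21 from full injection, each with 1 array per arm. Unoperated skin gave 1 telogen array (hair follicles at rest) and 1 anagen array (follicles growing). The labels do not tell single animals from pools, so all p-values measure only the spread between these arrays. In whole skin, fewer cells of a type and less RNA per cell cannot be told apart.

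IL-1 alpha and IL-33 are stored in keratinocytes and other barrier cells and act as alarm signals when cells are injured, while IL-1 beta is made mainly by myeloid cells and must be cut by caspase-1. Both forms of IL-1 signal through the IL-1 receptor and MyD88 to NF-kB, and Il1rn encodes the antagonist that occupies the same receptor. Cytokines of the IL-6 family share the receptor chain gp130, encoded by Il6st, and signal through JAK kinases and STAT3, which switches on Socs3, an inhibitor of the same receptors. In skin both families are known from wound healing and inflammation.

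Socs3 was the member that separated the arms, at levels below background on most arrays. Il6 and Il1b, with Il33, lay above skin without surgery on every implanted array, for Il6 partly at levels too low to measure. The promoters of Socs3, Il6 and Il1b are therefore shown. Each runs 5′ to 3′ along the gene's own strand from 250 bases before to 50 after the annotated start (RefSeq, GRCm38.p6). Capitals mark matches, on either strand, to a STAT motif (TTCNNNGAA), an NF-kB motif (GGG and CC with any 5 bases between) or an AP-1 motif (TGANTCA).
Socs3, chr11:117969317-117969616, minus strand: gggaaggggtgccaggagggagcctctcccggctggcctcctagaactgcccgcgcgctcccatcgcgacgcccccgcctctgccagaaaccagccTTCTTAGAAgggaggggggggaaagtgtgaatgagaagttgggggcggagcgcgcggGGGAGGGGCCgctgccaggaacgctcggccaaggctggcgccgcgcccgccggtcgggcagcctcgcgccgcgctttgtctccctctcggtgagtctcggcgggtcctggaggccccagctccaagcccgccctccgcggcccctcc
Il6, chr5:30012864-30013163, plus strand: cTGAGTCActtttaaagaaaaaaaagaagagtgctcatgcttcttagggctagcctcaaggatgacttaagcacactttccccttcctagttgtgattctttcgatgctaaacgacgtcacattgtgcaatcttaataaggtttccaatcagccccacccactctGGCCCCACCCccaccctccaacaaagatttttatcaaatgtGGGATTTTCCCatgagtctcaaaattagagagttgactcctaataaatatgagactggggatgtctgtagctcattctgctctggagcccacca
Il1b, chr2:129371090-129371389, minus strand: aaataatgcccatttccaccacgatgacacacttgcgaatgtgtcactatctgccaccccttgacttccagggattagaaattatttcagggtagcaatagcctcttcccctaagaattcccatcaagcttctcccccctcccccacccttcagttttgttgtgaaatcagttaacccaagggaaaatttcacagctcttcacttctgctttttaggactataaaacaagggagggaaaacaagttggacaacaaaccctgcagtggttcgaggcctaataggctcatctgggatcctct
The Socs3 window held 1 STAT match (TTCTTAGAA, from -154 to -146) and 1 NF-kB match (GGGAGGGGCC, from -97 to -88). In the Il6 window, the NF-kB motif matched from -85 to -76 and, in overlapping matches of both strands, from -44 to -35 and from -43 to -34, and the AP-1 motif matched from -249 to -243. No letters of the 3 motifs lay in the Il1b window. Among the 14 annotated promoters of the 10 genes, 1 held the STAT motif, 9 the NF-kB motif and 6 the AP-1 motif, against 8.30%, 50.8% and 7.81% of all 32851 promoters of this length. Some of these windows overlap, and overlapping Il1rn windows share an NF-kB match. By gene, 1, 7 and 6 of 10 held the STAT, NF-kB and AP-1 motifs. A match is a description of letters and not a binding site.

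Values are log2 signals as deposited, and differences are on that log2 scale. Array medians over all probe sets lay between 6.27 and 6.45, and the number of arrays limits the precision. The 23 background probe sets had a median of 5.46 over all arrays, with array medians from 5.32 to 5.53, and spread on each array from under 3 to over 6, so the median is a rough mark. The labelled tissue carried its defining markers: all 6 basal keratinocyte genes, the 5 suprabasal keratinocyte genes and the 5 fibroblast genes on the array lay above background on average.

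**Figure D1:**
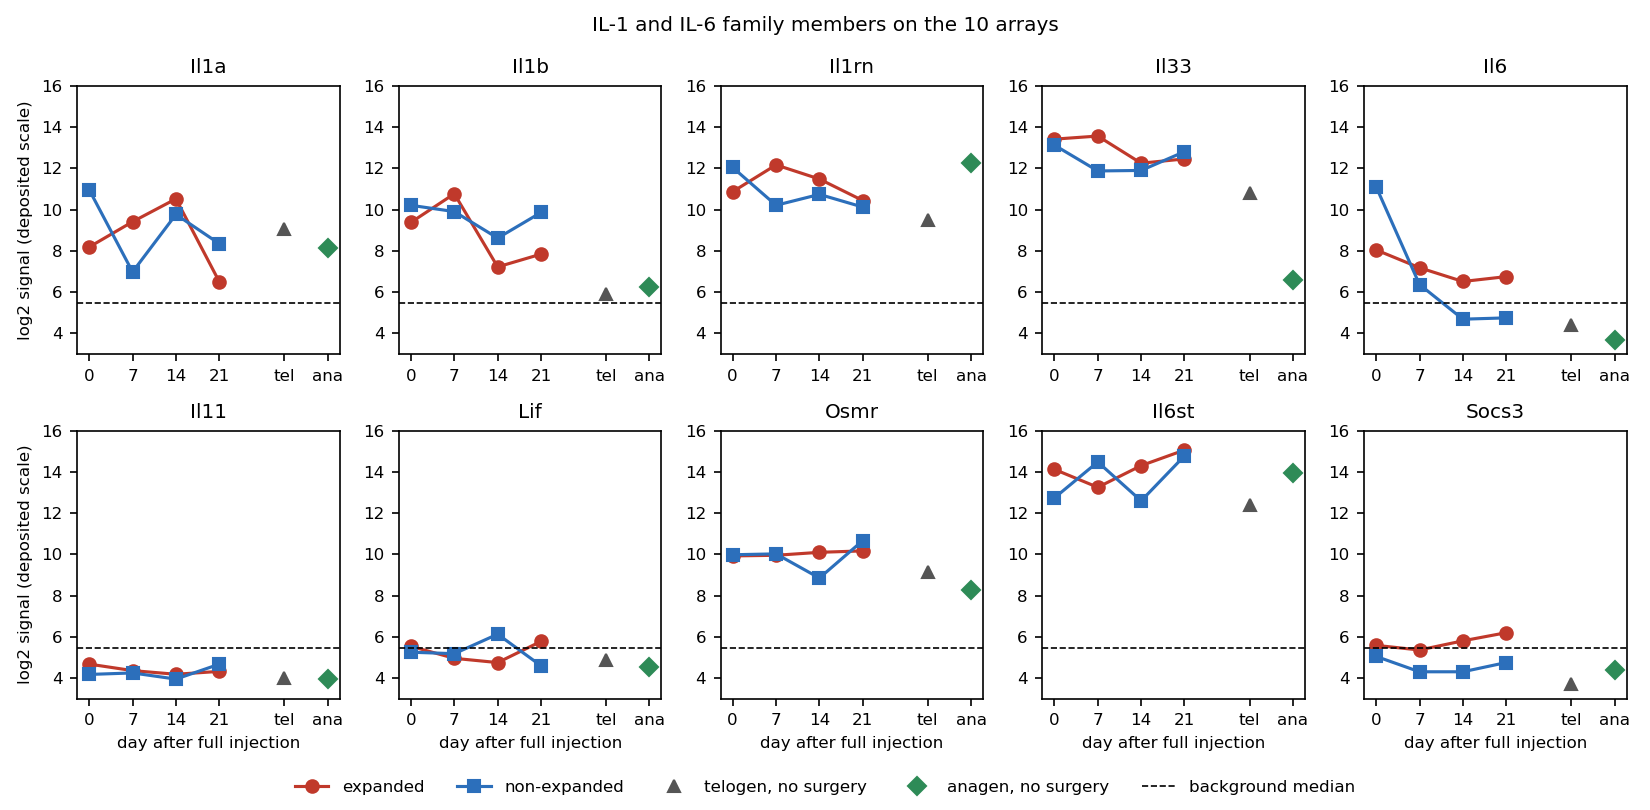
Log2 signal of the 10 genes (y axis, deposited scale) on each array: expanded (red circles) and non-expanded skin (blue squares) by day after full injection, and the telogen (tel) and anagen (ana) arrays without surgery. The dashed line is the background median of 5.46. Il11 lies under it on all 10 arrays. Socs3 is higher in expanded skin on each of the 4 days, though it lies below background on most arrays.

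Among the IL-1 family ligands, Il33 and Il1b were high in implanted skin of either arm. Il33 (chromosome 19, 29925113 to 29960718, mm10) had expanded levels of 13.42 (day 0), 13.57 (day 7), 12.26 (day 14) and 12.46 (day 21), the order of days used throughout. In non-expanded skin it read 13.13, 11.88, 11.90 and 12.81, against 10.82 in telogen and 6.61 in anagen. All 8 implanted arrays thus lay above both arrays without surgery, and the arms overlapped. Il1b (chromosome 2, 129364569 to 129371164) read 9.38, 10.77, 7.22 and 7.84 in expanded skin. It read 10.21, 9.91, 8.62 and 9.87 in non-expanded skin, against 5.90 in telogen and 6.27 in anagen, close to background. Again every implanted array was above both arrays without surgery. Expanded skin was the lower arm for Il1b at days 0, 14 and 21 and the higher at day 7.

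Il1a and the antagonist gene Il1rn gave no such separation. Il1a (chromosome 2, 129299609 to 129310186) read 8.19, 9.42, 10.53 and 6.50 in expanded and 10.96, 6.98, 9.77 and 8.35 in non-expanded skin, with 9.06 in telogen and 8.16 in anagen. The arms changed places more than once over the days, and both spanned the arrays without surgery. Il1rn (chromosome 2, 24336860 to 24351491) read 10.87, 12.17, 11.49 and 10.44 in expanded skin and 12.05, 10.21, 10.74 and 10.13 in non-expanded skin. Its highest level, 12.28, was that of anagen skin and its lowest, 9.48, that of telogen skin, so the implanted arrays lay between them.

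Of the IL-6 family ligands only Il6 stood clear of background on several arrays. Il6 (chromosome 5, 30013114 to 30019975) read 8.05, 7.18, 6.52 and 6.75 in expanded skin, above background on all 4 arrays. In non-expanded skin it read 11.11 at day 0, the highest of the 10 arrays, then 6.37, 4.69 and 4.75, and the last pair lay below background, as did telogen at 4.42 and anagen at 3.69. The non-expanded SD was accordingly 3.02, against 0.67 in expanded skin (n = 4 arrays each). Lif (chromosome 11, 4257568 to 4272514), which encodes leukaemia inhibitory factor, stayed between 4.55 and 6.12 and was above background on 3 of 10 arrays: expanded skin at days 0 and 21 and non-expanded skin at day 14. Il11 (chromosome 7, 4772373 to 4782907) read between 3.94 and 4.67, below background on all 10 arrays. These probe sets therefore give no measured level of Il11 and little of Lif.

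The receptor chains were well measured. Osmr (chromosome 15, 6813568 to 6874968), the oncostatin M receptor, read 9.92, 9.95, 10.10 and 10.16 in expanded skin, an SD of 0.12. Its non-expanded values were 9.98, 10.02, 8.85 and 10.66, an SD of 0.76, and telogen and anagen read 9.13 and 8.25. Each expanded array was above both arrays without surgery, whereas non-expanded skin at day 14 was not. Il6st (chromosome 13, 112464070 to 112506860) had the highest mean of the members, at the 96.4th percentile of all genes named. It read 14.12, 13.25, 14.30 and 15.06 in expanded skin and 12.73, 14.48, 12.59 and 14.77 in non-expanded skin, with 12.40 in telogen and 13.95 in anagen, and the groups overlapped.

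Socs3 (chromosome 11, 117966079 to 117970336) was the only member whose arms did not overlap. It read 5.58, 5.36, 5.80 and 6.20 in expanded skin and 5.04, 4.30, 4.30 and 4.75 in non-expanded skin, with 3.73 in telogen and 4.41 in anagen. Expanded skin was higher on all 4 days, by 0.54, 1.06, 1.50 and 1.45. The level is low: it was above its array's background median on 3 of 4 expanded arrays and on none of the other 6. With every value below that median raised to it, the difference between the arms was 0.30.

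Expanded against non-expanded skin, compared within days, asks what stretching adds to an implant. Socs3 differed by 1.14 ± 0.25 (SE, 95% interval 0.53 to 1.74, n = 4 pairs), with means of 5.73 ± 0.36 and 4.60 ± 0.36 (SD). It did not pass over all genes (limma adjusted p = 0.331). No gene of 13653 did (0% called by limma), while 1202 (8.8%) had an unadjusted p under 0.05, 4.83% of genes being higher with it, and of the 9 members Socs3 was the 1 that did. Separation of the arms in this direction was seen in 405 genes (2.97%), and a higher level in expanded skin on all 4 days in 1254 (9.18%). No member was lower on all 4 days (8.1% of genes) or had every expanded array below every non-expanded one (1.87%). The mean of Il1b was 8.81 ± 1.59 (SD, n = 4) with expansion, against 9.65 ± 0.70 without (SD, n = 4), a difference of -0.85 ± 0.47 (SE), and its 95% interval ran from -1.96 to 0.27.

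The other members had intervals that held 0 as well. The difference was 0.50 ± 0.35 (SE) for Il33, 0.54 ± 0.49 for Il6st, 0.46 ± 0.48 for Il1rn and 0.16 ± 0.33 for Osmr. It was 0.40 ± 0.83 for Il6, -0.36 ± 0.83 for Il1a and -0.03 ± 0.41 for Lif. For Il6 and Il1a the intervals, -1.59 to 2.38 and -2.36 to 1.64, leave room for differences of over 2-fold either way. With Il1b, the adjusted p of these 8 genes lay between 0.657 and 0.988. In all, 6 of 9 members were higher in expanded skin, with a median of 0.40, against 52.5% of all genes tested with a median of 0.02. The median was 0.097 without day 7 and 0.15 without day 14. The sign turned for Il1a without day 0 (0.45) or day 21 (0.14), for Il6 without day 14 (-0.08) or day 21 (-0.14), for Il1rn without day 7 (-0.04), for Lif without day 7 (0.03) or day 14 (0.41) and for Osmr without day 14 (-0.21). Without day 0 the Il6 difference was 1.55 and did not pass, and with values below background raised to it over all 4 days it was 0.053.

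Single days had 1 array a side and no test. At day 0, Il6, Il1a and Il1rn were lower in expanded skin (-3.06, -2.77 and -1.18), so 3 of 9 members were at least 2-fold lower, against 6.18% of all genes tested, and Il6st was at least 2-fold higher (background 9.49%). At day 7, Il1a, Il1rn, Il33 and Socs3 were higher, by 2.43, 1.96, 1.69 and 1.06 (4 of 9, background 8.45%), and Il6st was lower (background 9.43%). At day 14, Il6, Il6st, Socs3 and Osmr were higher, by 1.83, 1.71, 1.50 and 1.25 (4 of 9, background 11.4%), while Il1b and Lif were lower (background 8.85%). At day 21, Il6, Socs3 and Lif were higher, by 2.00, 1.45 and 1.18 (3 of 9, background 6.69%), and Il1b and Il1a were lower (background 6.13%). Socs3, Il6, Il1a and Il6st were each at least 2-fold apart on 3 of 4 days, Socs3 in 1 direction and the others in both. Some of these differences were taken against levels below the background median and are not measured folds. This holds for both arms of Socs3 at day 7, for non-expanded Socs3 and Il6 at days 14 and 21, for expanded Lif at day 14 and for non-expanded Lif at day 21.

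**Figure D2:**
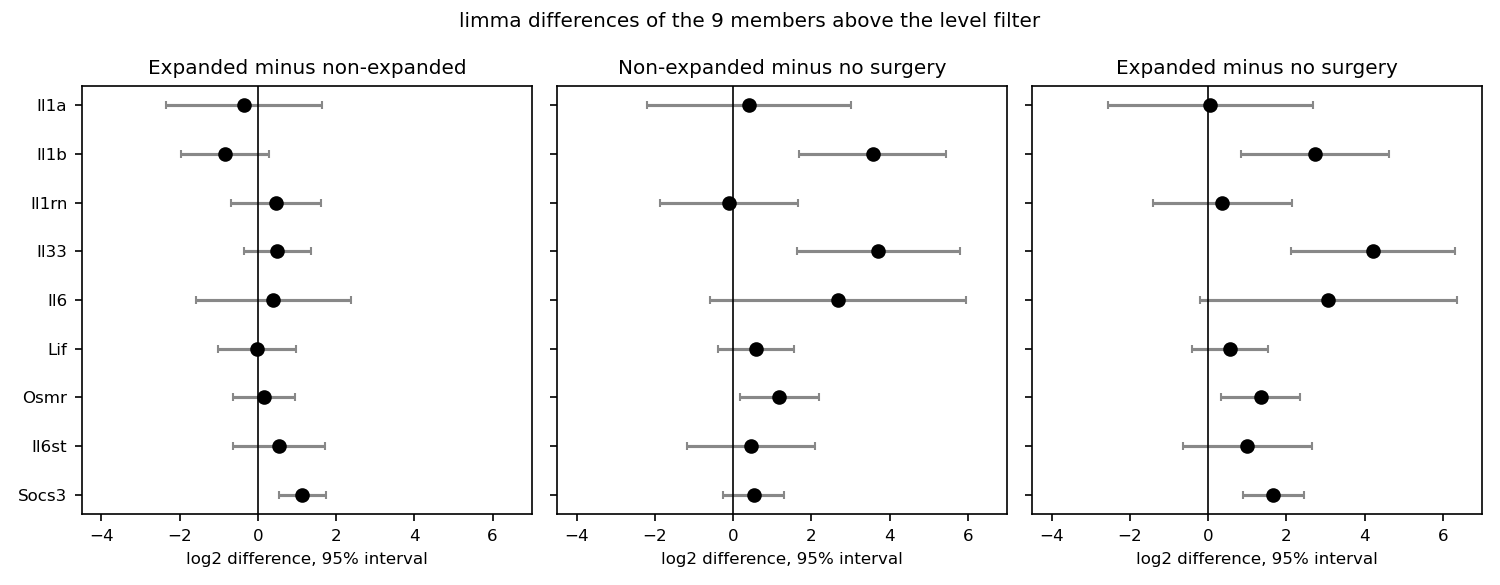
Differences in log2 signal (x axis, point with 95% interval from limma) for the 9 members above the level filter, in 3 comparisons. In the left panel only the Socs3 interval, 0.53 to 1.74, lies clear of 0, and in the other panels those of Il1b, Il33 and Osmr do, joined in the right panel by Socs3.

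Skin over an unfilled expander was compared with skin without surgery to see surgery and implant together, without stretching. The operation and the implant cannot be told apart here. Il33 averaged 12.43 ± 0.64 (SD, n = 4) against 8.72 in the telogen and anagen arrays together, a difference of 3.72 ± 0.94 (SE). Il1b averaged 9.65 ± 0.70 against 6.08, a difference of 3.57 ± 0.85. Neither passed over all genes (limma adjusted p = 0.113 and 0.103), nor did any of 13653 genes (0%), though 2144 (15.7%) had an unadjusted p under 0.05. Osmr differed by 1.19 ± 0.45 (adjusted p = 0.25), and Il33, Il1b and Osmr were the 3 of 9 members with an unadjusted p under 0.05, all higher (9.42% of genes in that direction). Il6 differed by 2.68 ± 1.48, by 1.68 once values below background were raised to it, and by 1.22 without the non-expanded array of day 0. Every non-expanded array lay above both arrays without surgery for 3 of 9 members, Il1b, Il33 and Il6, against 11.5% of all genes tested, and below both for 0 of 9 (7.21%). For Il6, the non-expanded arrays of days 14 and 21 and both references lay below background, so that part of its separation is not measured.

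Lif, Socs3, Il6st and Il1a differed by 0.59 ± 0.44, 0.53 ± 0.35, 0.47 ± 0.74 and 0.41 ± 1.18 in the same comparison, and Il1rn by -0.10 ± 0.80. Socs3 was below background on all 6 of these arrays and Lif on 5, so neither has a measured difference here. In all 8 of 9 members were higher, with a median of 0.59, against 50.7% of genes tested with a median of 0.01. The hair cycle stage of the reference mattered for some. With the anagen array alone as reference, Il33 differed by 5.82, and with telogen alone by 1.61, each against 1 array. Il1b differed by 3.38 and 3.75 with anagen and telogen as reference, a smaller dependence on the stage. Il1rn lay 1.30 above telogen and differed by -1.50 from anagen, Il6st by 1.24 from telogen and by -0.31 from anagen, and Il1a by -0.04 from telogen and by 0.85 from anagen. The sign also turned for Il1a without the non-expanded array of day 0 (-0.24), and for Il1rn without that of day 7 (0.09) or day 21 (0.12).

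Stretched skin against skin without surgery shares its 2 reference arrays with the previous comparison, so the values are given beside it. Il33 differed by 4.21 ± 0.94 (SE, adjusted p = 0.0701) and Il1b by 2.72 ± 0.85 (adjusted p = 0.15). Socs3 differed by 1.66 ± 0.35 (adjusted p = 0.0646), or by 0.37 with values below background raised to it, and Osmr by 1.34 ± 0.45 (adjusted p = 0.18). Il6 differed by 3.07 ± 1.48, and by 1.73 with values raised to background. Il6st differed by 1.00 ± 0.74, Lif by 0.55 ± 0.44 (0.17 with values raised to background), Il1rn by 0.36 ± 0.80 and Il1a by 0.05 ± 1.18.

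No member passed in this comparison, in which 65 genes (0.476%) did by limma, 4 of 9 members had an unadjusted p under 0.05 (16.4% of genes, 10.7% in the higher direction), and all 9 were higher, with a median of 1.34 (50.6% of genes higher, median 0.01). Every expanded array lay above both arrays without surgery for 5 of 9 members, Il1b, Il33, Il6, Osmr and Socs3 (background 14%), and none lay below both (8.59%). Il33 differed by 6.32 with anagen alone as reference and by 2.11 with telogen alone. Il1rn lay on opposite sides of telogen (1.76) and anagen (-1.04), and Il1a turned to -0.40 with telogen alone, to -0.20 without the expanded array of day 7 and to -0.57 without that of day 14. The arrays without surgery differed from each other most for Il33, which differed by -4.21 between anagen and telogen, and for Il1rn and Il6st, 2.80 and 1.55 higher in anagen. Among all genes tested, anagen was 2-fold or more above telogen in 23.5% and below it in 20.4%.

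Over the days, the steepest line was that of Il6 in non-expanded skin, with a change of -6.23 ± 1.27 (SE) over 21 days. It was -2.43 without day 0 and -9.63 without day 21, and the levels of days 14 and 21 lay below background. In expanded skin the change was -1.37 ± 1.27. The difference of the slopes was 4.86 ± 1.80 (limma adjusted p = 0.999, unadjusted p = 0.0283), and Il6 was the 1 of 9 members with an unadjusted p under 0.05, which 166 genes (1.22%) had. It rests on the day 0 pair: without it the difference was 1.78. Il1b changed by -2.45 ± 1.21 in expanded and by -0.70 ± 1.21 in non-expanded skin, and Socs3 by 0.69 ± 0.50 and by -0.27 ± 0.50. No gene passed for a slope in either arm or for their difference (0% called each), at unadjusted p under 0.05 there were 339 genes (2.48%) in expanded and 495 (3.63%) in non-expanded skin, and the members' other slopes had intervals that held 0.

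Genes downstream of both families were read from lists of the pathway. NF-kB response genes stood higher in implanted skin: in the comparison of non-expanded skin with skin without surgery 12 of 12 were higher (50.7% of all genes), with a median of 2.14 (all genes 0.01), and 10 were higher with an unadjusted p under 0.05 (9.42% of all genes), none passing over all genes. In stretched skin against skin without surgery 12 of 12 were higher as well (50.6% of all genes), with a median of 2.88, and 2 passed over all genes: Nfkbia, which encodes the inhibitor IkB alpha, by 3.18 (adjusted p = 0.0349), and Ptgs2, the inducible cyclooxygenase, by 4.04 (adjusted p = 0.0453). Ptgs2 read 5.26 in telogen and 4.08 in anagen, and Cxcl1 4.59 and 4.45, all below background. Their differences from skin without surgery are therefore not measured folds. For 11 of 12 genes every non-expanded array lay above both arrays without surgery (11.5% of all genes). Between the arms 9 of 12 were higher in expanded skin (52.5% of all genes), with a median of 0.59 (all genes 0.02). The smallest p there were those of Ptgs2 (1.30 ± 0.49), Tnfaip3 (1.39 ± 0.53), which encodes the NF-kB inhibitor A20, and Nfkbia (0.92 ± 0.38), with adjusted p of 0.528, 0.528 and 0.556.

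STAT3 response genes were higher in 7 of 8 cases between the arms (52.5% of all genes), with a median of 0.23 (all genes 0.02). In non-expanded skin 7 of 8 were higher than without surgery (50.7% of all genes), with a median of 1.86 (all genes 0.01). For 2 of 8, every non-expanded array lay above both arrays without surgery (11.5% of all genes). Timp1 read 3.46 in telogen and 3.97 in anagen, both below background, so its difference from them is not a measured fold. Pim1, a survival kinase, differed by 0.76 ± 0.29 between the arms and Junb, a subunit of AP-1, by 1.42 ± 0.57, both higher on all 4 days, while Hp, which encodes haptoglobin, differed by -1.14 ± 0.60 (adjusted p from 0.528 to 0.642). Immediate early genes, which many stimuli switch on within minutes, were read beside Socs3: 7 of 7 were higher in expanded skin, with a median of 1.65, against 52.5% and 0.02 over all genes. Fosb, Zfp36 and Fos differed by 3.04 ± 0.66, 1.72 ± 0.48 and 3.05 ± 0.90 and did not pass (adjusted p from 0.331 to 0.437), and their part in the Socs3 difference was not tested. The list mean was 13.38, 10.67, 12.66 and 14.18 in expanded skin and 11.60, 9.78, 12.03 and 9.64 in non-expanded skin, against 8.11 in telogen and 8.37 in anagen.

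**Figure D3:**
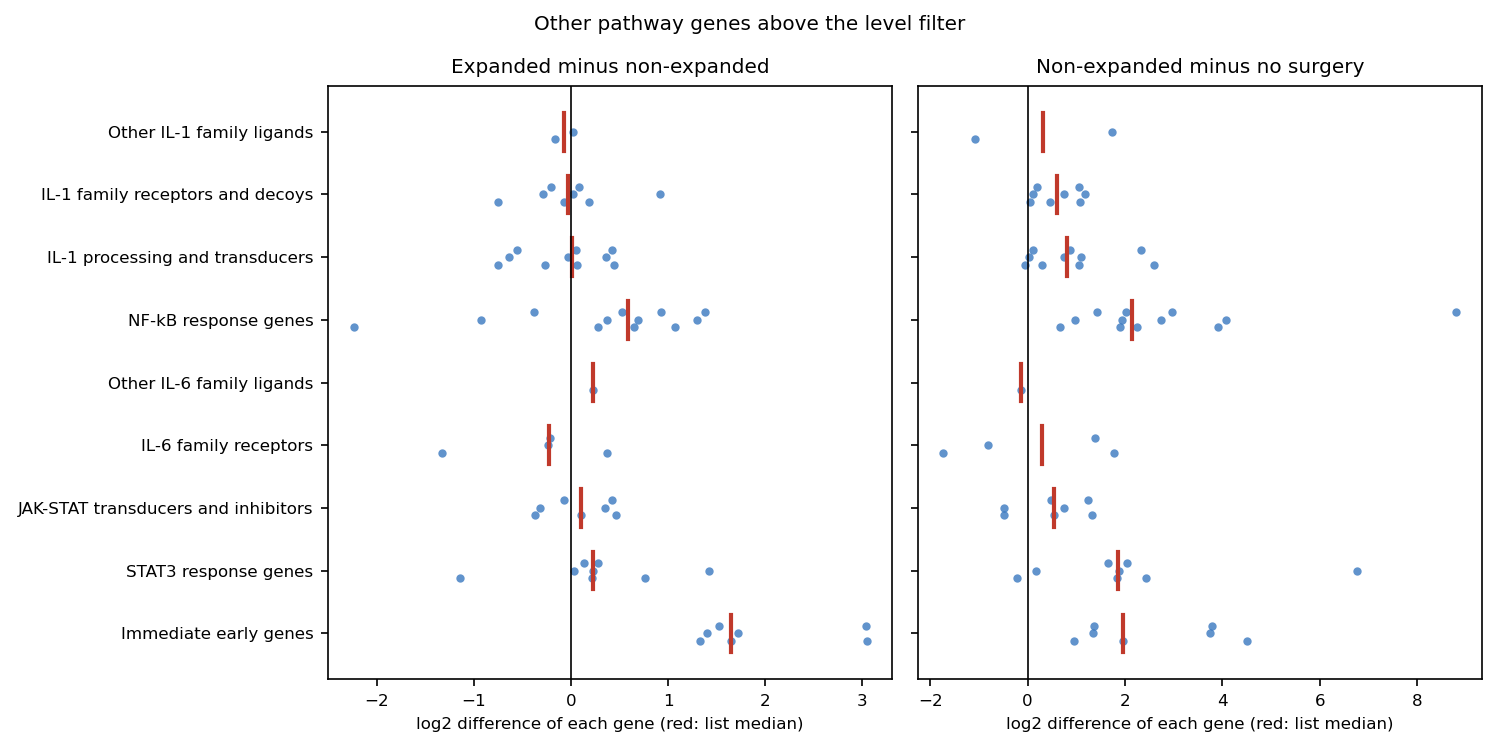
Log2 difference of each other pathway gene above the level filter (blue points, spread vertically only for legibility) and the list median (red bar), between the arms (left) and for non-expanded skin against skin without surgery (right). The 12 NF-kB response genes have medians of 0.59 and 2.14, and the 7 immediate early genes all lie above 0 in both panels.

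Receptors and transducers gave medians near 0 between the arms for the IL-1 family. Of 8 IL-1 family receptors and decoys tested, 4 were higher in expanded skin (median -0.03) and 8 of 8 were higher in non-expanded skin than without surgery (median 0.61). Over all genes these shares were 52.5% (median 0.02) and 50.7% (median 0.01), as for the other receptor and signalling lists. The reference is the mean of both stages. In non-expanded skin Il1r2 and Il18r1 averaged 11.37 and 7.28, below telogen (11.75 and 8.36) and above anagen (8.85 and 5.82). Every non-expanded array lay above both arrays without surgery for 1 of the 8 receptors and decoys, against 11.5% of all genes. Il1r2, the decoy receptor that binds IL-1 without signalling, was lower in expanded skin on all 4 days, by -0.75 ± 0.25 (SE, limma adjusted p = 0.481), Il18r1 differed by 0.91 ± 0.46 and Il18rap by -0.29 ± 0.28. Of 10 processing and signalling genes, 5 were higher in expanded skin (median 0.01) and 9 in non-expanded skin against skin without surgery (median 0.80). For 1 of these 10, every non-expanded array lay above both arrays without surgery. The inflammatory caspase genes Casp4 and Casp1 differed by -0.75 ± 0.32 and -0.56 ± 0.26 between the arms, and Irak2, a kinase downstream of MyD88, by 0.42 ± 0.25, none of which passed. Of the other IL-1 family ligands 2 of 6 were on the array, Il18 at -0.17 ± 0.51 and Il1f10 at 0.02 ± 0.35.

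On the IL-6 side, 4 of 5 receptor genes on the array were tested and 1 was higher in expanded skin (median -0.23). Il31ra, which pairs with Osmr as the receptor of the itch cytokine IL-31, read 8.64, 6.94, 7.88 and 8.79 in expanded and 9.25, 9.02, 9.87 and 9.46 in non-expanded skin. It was lower on all 4 days, by -1.33 ± 0.34 (SE, limma adjusted p = 0.37), and stood at 12.81 in telogen and 7.60 in anagen. Cntfr differed by 0.37 ± 0.33 and Il6ra, the alpha chain of the IL-6 receptor, by -0.23 ± 0.28. Of 6 other ligands on the array, only Ctf1, which encodes cardiotrophin 1, passed the level filter (0.22 ± 0.24), and Osm, the ligand of Osmr, did not. Of 7 JAK-STAT genes tested, 4 were higher in expanded skin (median 0.10), with Tyk2 at -0.37 ± 0.20, Cish at 0.46 ± 0.28 and Ptpn11 at 0.35 ± 0.24. Over skin without surgery, 5 of 7 were higher in non-expanded skin (median 0.55). For 3 of 7, every non-expanded array lay above both arrays without surgery (11.5% of all genes).

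Markers of myeloid cells and of wound epidermis varied between the arrays and are given beside the members. Neutrophil genes had a list mean of 10.60 in non-expanded skin at day 0, where Il6 and Il1a peaked. The mean was 11.17 in expanded skin at day 7, where Il1b and Il1rn were highest in that arm but Il6 read 7.18. In expanded skin Il1a was highest at day 14 (10.53), where the neutrophil mean was 8.89. On the other implanted arrays the mean lay between 6.29 and 8.89, against 5.20 in telogen and 5.07 in anagen. In each arm 6 of 6 neutrophil genes were higher than without surgery, against 50.7% of all genes for non-expanded and 50.6% for expanded skin. Macrophage genes ran from 11.24 to 12.87 in expanded and from 11.63 to 13.68 in non-expanded skin, against 10.32 and 8.65 without surgery. Of 7 macrophage genes, 7 were higher in either arm than without surgery, against the same shares of all genes. Between the arms 0 of 7 were higher in expanded skin, the direction of Il1b, against 52.5% of all genes. Of 6 neutrophil genes, 4 were higher in expanded skin, against the direction of Il1b, with list means of 8.46 (expanded) and 8.53 (non-expanded). Wound keratinocyte genes had list means of 11.83 on the non-expanded array of day 0 and 14.41 on the expanded array of day 7, and from 7.35 to 12.60 on the other implanted arrays, against 7.50 in telogen and 10.74 in anagen. The part of these cells in the members' levels was not tested.

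Other lists differed between the arms as well. Skeletal muscle genes ran from 13.45 to 16.08 in expanded and from 16.03 to 17.26 in non-expanded skin, with 0 of 8 higher in expanded skin, and basal keratinocyte genes from 14.52 to 14.95 and from 13.60 to 14.24, with 6 of 6 higher. The basal keratinocyte means did not overlap between the arms, nor did the levels of Socs3, which lay below background on most arrays. The means of mast cell genes did not overlap either. They ran from 8.84 to 9.52 in expanded and from 8.47 to 8.83 in non-expanded skin, with 5 of 6 higher. They stood at 8.13 in telogen and 7.78 in anagen. Of all genes, 52.5% were higher in expanded skin, and 2.97% had every expanded array above every non-expanded one. The part of these cells in the Socs3 difference was not tested. Hair shaft and inner root sheath genes had a mean of 12.98 on the expanded array of day 7 and 17.03 in anagen. Il1rn was highest on these arrays, with 12.17 and 12.28. On the other 8 the list mean lay from 4.33 to 8.75. It was 4.69 on the non-expanded array of day 0, where Il1rn read 12.05. The part of hair follicle cells in the Il1rn level was not tested. Endothelial genes ran from 9.27 to 10.37 in expanded and from 9.32 to 10.54 in non-expanded skin and stood at 9.49 in telogen and 8.09 in anagen.

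**Figure D4:**
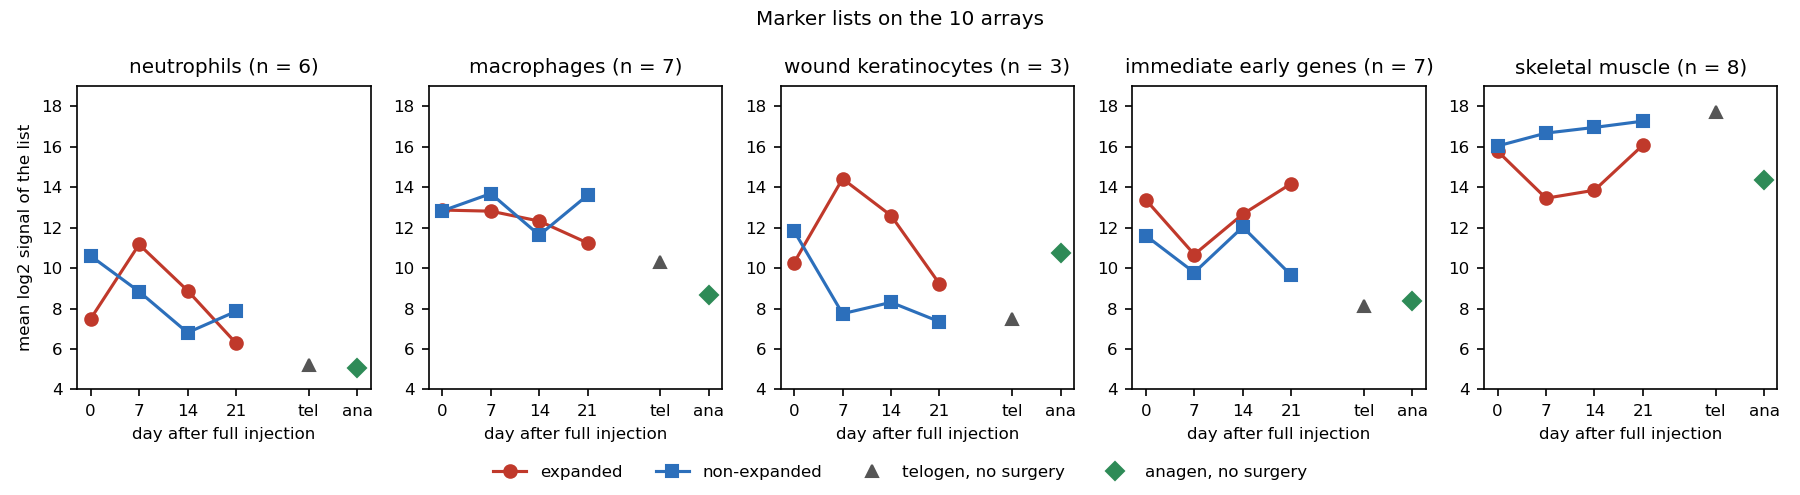
Mean log2 signal of 5 marker lists (y axis; number of genes in brackets) on each array, by day in expanded (red circles) and non-expanded skin (blue squares) and in telogen (tel) and anagen (ana) skin without surgery. Neutrophil genes peak at 10.60 in non-expanded skin at day 0 and at 11.17 in expanded skin at day 7.

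The genes whose levels ran most like each member over the 10 arrays are given as a description (Pearson r, with all arrays sharing the groups). Il1b ran with Lcp2, an adaptor of immune cell receptors (r = 0.962), and the chemokine gene Cxcl2 (0.953), and Il33 with Cytip (0.981) and Ctla2a (0.956). Socs3 ran with Myh3, the embryonic myosin heavy chain (0.928), and the adhesion gene Ncam1 (0.914), Osmr with the sphingosine phosphate receptor gene S1pr1 (0.946) and Cpd (0.939), and Il6 with Thsd4 (0.946) and Prcd (0.915). Il1rn ran with Eif3c (0.98) and Psmc2 (0.979), Il6st with Rab2b (0.979) and Asb13 (0.97), Il1a with Med4 (0.906) and Rpp30 (0.905), and Lif with Ubtd2 (0.913) and Cachd1 (0.883). Among the members, Il33 ran most like Osmr (0.80) and Il1b (0.71), and Il1a ran against Il6st (-0.66).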

How the data were processed

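RNA of whole back skin was measured on 10 Affymetrix arrays, labelled with the WT PLUS kit per the labels' protocols. The authors deposited 1 value for each of 28846 probe sets, read here as log2 signals from their range (1.87 to 19.88) and the platform, since log base, background correction and normalization are not given in the sources used here. On at least 1 array 586 probe sets exceed 16, which a 16-bit scanner cannot exceed on a log2 scale, so differences may be stretched. The submitters' processing notes name mm10. A symbol was given for 19572 probe sets, and gene positions come from RefSeq. Genes with a mean under the 30th percentile (4.86) were removed. Of the 13653 genes left, 10.9% had a mean below the background median.

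Differences were fitted with limma 3.58.1 (lmFit, eBayes) in R 4.3.3, two-sided, with Benjamini-Hochberg adjustment over all genes tested and a threshold of 0.05. The arms were compared with the day as a block (3 residual degrees of freedom). The labels give both arms the same days, which pairs the arrays. After removing arm means, the 2 arrays of a day correlated at -0.133, -0.171, -0.104 and 0.358. Arms against skin without surgery used all 10 arrays (7 degrees of freedom), and lines over days used 8 (4 degrees of freedom). An exact permutation test of 4 pairs cannot go below 0.125. The code was tested on simulated data.

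Members, lists and motifs were chosen with earlier results of these data known. The text names all members, for each list the 3 genes (or fewer) with the smallest p between the arms, and for each member the 2 genes most like it, leaving out predicted and small RNA genes. Other list genes are named only for levels below background. Alternatives were no filter, quantile normalization, median centring, a variance trend, averaged probe sets, no block, 1 reference stage, and leaving out days or arrays.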

Additional observations from a re-analysis of the deposited data

How the results depend on the processing

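Between the arms, 2 genes passed without the replicate block and from 0 to 1 with 1 day left out, and Socs3 differed by 1.14 without the block. Against skin without surgery, from 0 to 2645 genes passed for non-expanded and from 5 to 1850 for expanded skin with 1 array left out. Without the non-expanded array of day 14 the count was 112, without the expanded arrays of days 0, 7 and 14 it was 8, 43 and 5, and with anagen as the reference it was 2645 and 1850. No filter gave 33 genes for expanded skin. The members' median ran from 0.097 to 0.45 between the arms with 1 day left out. Against skin without surgery it ran from 0.77 to 1.24 and from 1.30 to 1.78 with 1 array left out, and telogen as the reference gave 1.24 and 1.78. That reference gave Il1a -0.039 and -0.40, and Il1rn 1.30 for non-expanded skin. Anagen gave Il6st -0.31 for non-expanded and Il1rn -1.04 for expanded skin. Quantile normalization turned Lif to 0.023 between the arms, and median centring the Osmr difference of slopes to 0.031. Leaving out 1 day or array turned the sign of the following, given as lowest to highest. Between the arms these were Il1a from -1.29 to 0.45, Il1rn from -0.038 to 1.01, Il6 from -0.14 to 1.55, Lif from -0.44 to 0.41 and Osmr from -0.21 to 0.37. For non-expanded skin against skin without surgery these were Il1a from -0.24 to 1.09, Il1rn from -1.50 to 1.30 and Il6st from -0.31 to 1.24. For expanded skin against skin without surgery these were Il1a from -0.57 to 0.77 and Il1rn from -1.04 to 1.76. For the 21-day slope in expanded skin these were Il1a from -4.37 to 3.51, Il1rn from -2.59 to 0.92 and Lif from -1.18 to 1.23. For that in non-expanded skin these were Il1a from -2.50 to 2.05, Il33 from -1.84 to 1.40, Il6st from -0.21 to 1.81, Lif from -0.88 to 1.31, Osmr from -1.69 to 0.97 and Socs3 from -1.12 to 0.67. For the difference of slopes these were Il1a from -6.42 to 5.30, Il1rn from -2.46 to 2.88, Il33 from -3.07 to 0.090, Il6st from -0.88 to 2.27, Lif from -2.49 to 2.12 and Osmr from -0.65 to 1.96. The cause was not tested. With each day or array left out, Socs3, Il1b, Il33 and Il6st kept their direction between the arms. Il33, Il1b, Il6, Osmr, Socs3 and Lif kept theirs for both arms against skin without surgery. For Socs3 and Lif, most levels of non-expanded skin and of its references lay below background, so that direction is not measured. With 1 array per arm and day, 2 unoperated arrays and levels near background for Socs3, Lif and, on 4 arrays, Il6, these data resolve only large differences.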
